A study of Mus musculus with 25 samples.

Results

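In injured tibialis anterior muscle of the mouse, 10 genes of the p53, GADD45 and growth arrest programme were followed: Cdkn1a, Gadd45a, Gadd45b, Gadd45g, Mdm2, Btg1, Btg2, Ccng1, Sesn1 and Trp53. Members were taken by symbol, and each gene was read from its brightest probe set among those that the platform annotation maps to that symbol alone. Of the 10 symbols, 9 had such a probe set (11 probe sets in all), out of 8251 genes on the array, and Trp53 itself had none, so its RNA was not measured here. Each of the 25 samples is the RNA of a tibialis anterior on its own Affymetrix U74Av2 array. All mice were C57BL/6J females aged 2 to 3 months, with no allele or drug named. The 3 control samples were uninjured muscle. Contraction injury was 150 eccentric contractions, which lengthen the muscle while it is active in the living animal, and muscles were taken at 6 h (3 samples), 1 day (2), 3 days (3) and 7 days (3). Freeze injury was made with a steel probe 6 mm across at dry-ice temperature, held against the muscle for 10 s, and muscles were taken at 6 h (3 samples), 1 day (3), 3 days (3) and 7 days (2). The labels name no sham-operated group and do not say whether any samples share a mouse, so p-values reflect only how far these samples spread, which may in part be technical.

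The transcription factor p53 is held low by the ubiquitin ligase Mdm2 and is stabilised by DNA damage and other stress. Its targets include Cdkn1a (p21), an inhibitor of cyclin-dependent kinases, Mdm2 itself, cyclin G1 (Ccng1) and sestrin 1 (Sesn1). The GADD45 proteins are small stress-induced proteins that bind p21, PCNA and the kinase MEKK4 upstream of p38 and JNK. BTG1 and BTG2 belong to the antiproliferative BTG/TOB family, which binds the CCR4-NOT deadenylase. Most of these genes also respond to signals other than p53. In muscle, p21 accompanies the exit of myoblasts from the cell cycle, and Gadd45a is known as a gene of denervated and wasting fibres.

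Signals are MAS5 values on a linear scale, and a signal is compared between arrays for the same probe set only. A gene was called changed when its adjusted p was under 0.05 in a limma fit to log2(signal + 13) over all 9506 probe sets tested, which hold all 9 measured genes. Folds are given on that log2 scale. The trimmed mean was 150.1 on every array, and arrays of a group correlated at 0.939 to 0.976 over all probe sets, apart from sample 436. That sample is labelled freeze, 3 days, but correlated at 0.804 and 0.803 with the other freeze 3-day samples, 450 and 468, and at 0.947 to 0.952 with the controls. The summed signal of 12 macrophage markers was 388 on it, against 21866 and 22942 on samples 450 and 468 and 464 to 681 in the controls. Summed muscle fibre markers were 179650 on sample 436, against 30331 and 40934 on the other freeze 3-day samples and 111050 to 187870 in the controls. Results of the 9 genes are therefore given with all 25 arrays and, where a call differs, without sample 436, and counts of other genes with both where named. The ratio of the 3′ to the 5′ actin control probe sets, a measure of RNA length, was 0.560 to 0.595 in the controls. It was high at 3 days after contraction (0.923 to 1.21), at 1 day after freezing (1.01 to 1.31) and on freeze 3-day samples 450 and 468 (1.06 and 1.09). It was also above every control at 1 day after contraction (0.617 to 0.641) and at 6 h (0.657 to 0.955) and 7 days (0.776 to 0.808) after freezing. On sample 436 this ratio was 0.741. The same ratio for Gapdh was 0.869 to 1.13 in the controls and 0.923 to 1.12 at 3 days after contraction. After freezing the Gapdh ratio was 0.825 to 1.04 at 1 day, and 0.902 and 0.878 on samples 450 and 468. The part of RNA length in the results was not tested.

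The windows of 250 bases before the transcription start (RefSeq, mouse build GRCm38.p6) were available for all 10 genes, 12 windows in all because Cdkn1a and Sesn1 have more than 1 start. They were searched on both strands for the p53 consensus of 10 bases, pairs of it (at most 13 bases apart and at most 1 mismatch in the pair), TGACGTCA (the cAMP response element), the AP-1 element (TGANTCA), the CCAAT box, the TATA box (searched as TATAAA), the E-box (searched as CANNTG) and the CArG box of serum response factor. The 5 windows printed here are those of the genes with a p53 pair, Cdkn1a and Ccng1, and of the 3 genes that moved most alike, Btg2, Gadd45g and Gadd45b. Capitals mark the p53 elements, TGACGTCA, CCAAT and TATAAA, and each sequence runs 5′ to 3′ on the strand of its gene, ending at the base before the start.
Cdkn1a, upstream start, chr17:29090729-29090978, plus strand: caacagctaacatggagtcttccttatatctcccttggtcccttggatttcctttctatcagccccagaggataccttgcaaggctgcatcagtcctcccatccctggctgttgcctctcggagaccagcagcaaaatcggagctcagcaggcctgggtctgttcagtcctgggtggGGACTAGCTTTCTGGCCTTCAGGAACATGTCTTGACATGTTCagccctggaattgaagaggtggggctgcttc
Ccng1, chr11:40755287-40755536, minus strand: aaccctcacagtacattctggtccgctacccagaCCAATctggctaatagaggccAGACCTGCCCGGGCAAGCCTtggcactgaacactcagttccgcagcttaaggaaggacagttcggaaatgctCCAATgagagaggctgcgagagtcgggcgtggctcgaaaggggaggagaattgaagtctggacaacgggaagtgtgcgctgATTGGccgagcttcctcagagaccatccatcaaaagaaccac
Btg2, chr1:134079156-134079405, minus strand: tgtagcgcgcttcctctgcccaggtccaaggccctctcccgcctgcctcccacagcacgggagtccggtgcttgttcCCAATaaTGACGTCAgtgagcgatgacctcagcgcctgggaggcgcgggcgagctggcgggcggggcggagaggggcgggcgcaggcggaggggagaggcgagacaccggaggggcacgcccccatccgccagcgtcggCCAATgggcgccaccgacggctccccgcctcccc
Gadd45g, chr13:51846425-51846674, plus strand: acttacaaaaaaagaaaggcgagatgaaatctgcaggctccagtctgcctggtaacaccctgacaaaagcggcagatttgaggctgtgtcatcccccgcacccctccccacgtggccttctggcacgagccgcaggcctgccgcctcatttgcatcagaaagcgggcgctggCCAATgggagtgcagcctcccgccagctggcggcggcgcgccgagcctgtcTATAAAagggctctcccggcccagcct
Gadd45b, chr10:80929841-80930090, plus strand: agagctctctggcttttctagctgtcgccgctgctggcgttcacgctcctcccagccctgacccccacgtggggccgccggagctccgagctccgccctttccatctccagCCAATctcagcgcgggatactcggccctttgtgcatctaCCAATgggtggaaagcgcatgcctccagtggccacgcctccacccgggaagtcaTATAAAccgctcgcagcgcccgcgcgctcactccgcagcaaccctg

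In the Cdkn1a window the perfect p53 elements GGACTAGCTT and GAACATGTCT lay at -73 to -64 and -51 to -42, counted back from the start. Together they made a pair at -73 to -42. GAACATGTCT was also part of a pair at -51 to -32, whose last 10 bases were not an exact match. The other annotated Cdkn1a start lay 2790 bases downstream, and its window held an E-box and no p53 element. In the Ccng1 window the pair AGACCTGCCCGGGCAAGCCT lay at -195 to -176, and its last 10 bases matched the consensus exactly. Such pairs were found in 0.898% of 32851 windows of the same length, and single p53 elements in 7.13%. Single elements also lay in the windows of Gadd45a (GGGCTAGCCC, at -40 to -31), Mdm2 (GAACTTGCCT, at -186 to -177), Sesn1 (AAGCTTGTTT, at -173 to -164 of a start) and Trp53 (GGACTTGCCC, at -75 to -66). Btg2 was the member whose window held TGACGTCA, at -166 to -159, with CCAAT just upstream at -173 to -169, and 1.55% of all windows held TGACGTCA. Gadd45b, Gadd45g and Btg1 each held CCAAT and TATAAA, the latter at -46 to -41, -27 to -22 and -26 to -21, as did Trp53 with TATAAA on the other strand at -248 to -243, motifs found in 33.8% and 12.4% of windows. The E-box, which 66.2% of windows held and which is not in capitals, occurred as CACGTG in both of these Gadd45 windows, at -185 to -180 in Gadd45b and -142 to -137 in Gadd45g. None of the 12 windows held TGANTCA (6.75% of all windows) or a CArG box (1.47%). A match is a run of letters, and binding was not measured.

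Among the 9 measured genes, the median change was largest at 6 h after either injury. Single genes did not all follow. Gadd45a after contraction was highest at 3 days (log2 change 2.23, against 1.15 at 6 h), and Ccng1 was furthest from control at 3 days. At 6 h after contraction 4 of the 9 genes were called, all higher (Btg2, Gadd45g, Gadd45b and Sesn1), against 1.87% of all probe sets tested in either direction. Without sample 436, Cdkn1a joined them, 5 of 9 against 3.36%. Of the 9, 6 were called at 6 h after freezing, all higher (Btg2, Gadd45g, Gadd45a, Btg1, Cdkn1a and Gadd45b), against 4.85%, and 7 without sample 436, where Ccng1 was called lower, against 11.4%. Without freeze sample 446 it was 3. The median log2 change of the 9 genes was 1.43 at 6 h after either injury, and the median of all probe sets was -0.08 and -0.04. The 9 genes were chosen with earlier results of these data known, so these shares and medians describe them and are not a test.

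With all arrays the count fell after 6 h, and the genes that were called differed between the injuries. At 1 day after contraction Gadd45a, Gadd45g and Btg2 were called higher, 3 of 9 against 1.79% of probe sets, and Sesn1 joined them without sample 436, 4 of 9 against 4.33%. At 1 day after freezing the 3 called higher were Btg1, Cdkn1a and Btg2, against 14.2%, and without sample 436 Gadd45a was also higher and Ccng1 lower, 5 of 9 against 26.8%. At 3 days after contraction Gadd45a and Cdkn1a were higher and Gadd45b lower, 3 of 9 against 8.25%, and without sample 436 Btg2 was higher and Ccng1 lower as well, 5 of 9 against 22.8%. With sample 436 kept, the count was 1 at 1 day after freezing without control 2 or 3 or freeze sample 422 or 464, and 1 at 3 days after contraction without control 1 or 2 or contraction sample 435. At 7 days after contraction limma called none of the 9 (0.537% of probe sets), with 2 at an unadjusted p under 0.05, and 1, Gadd45a, without sample 436 (3.03%).

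The freeze groups at 3 and 7 days depended most on sample 436. At 3 days limma called none of the 9 with all arrays, against 17.9% of probe sets, although 5 had an unadjusted p under 0.05. Without sample 436, Cdkn1a, Btg1, Sesn1 and Gadd45g were called higher and Ccng1 lower, 5 of 9 against 42.4%, the highest background among the 8 comparisons with control. At 7 days after freezing 1 of 9, Gadd45b, was called, lower, against 5.29%. Without sample 436 it was joined by Cdkn1a, Gadd45a and Btg1, higher, and Ccng1, lower, 5 of 9 against 19.5%. With sample 436 kept, the count was 1 at 3 days without freeze sample 432, and 0 at 7 days without control 1 or 2 or freeze sample 440 or 454. In the F test over all 8 injured groups 6 of 9 genes were called (Btg2, Gadd45g, Gadd45b, Sesn1, Gadd45a and Btg1) against 26.2% of probe sets, and without sample 436 all but Mdm2, 8 of 9 against 49.3%. Read from its other probe set, Cdkn1a was called with all arrays at 3 and 7 days after freezing and in the F test (adjusted p = 0.0207, 0.0102 and 0.00553).

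**Figure D1:**
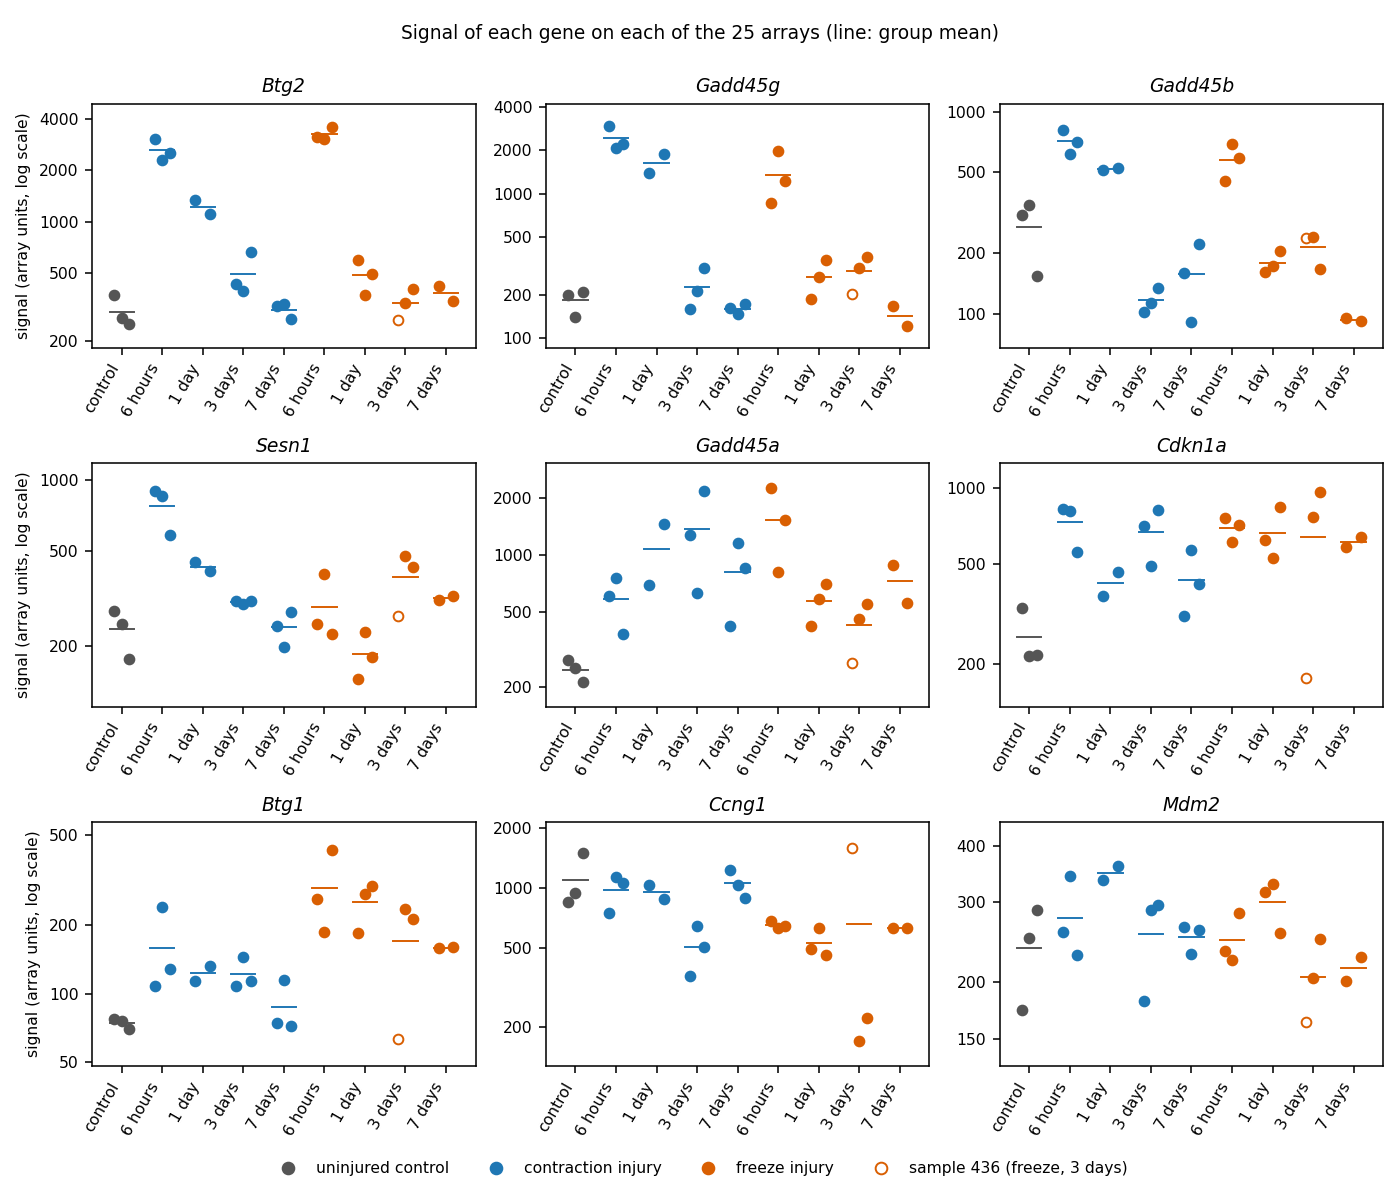
Signal of each measured gene on each array (y axis: MAS5 signal in array units, log scale; x axis: control, then contraction in blue and freeze in orange at 4 times). Points are single arrays, lines are group means and the open circle is sample 436. Btg2, Gadd45g and Gadd45b stand highest at 6 h, Cdkn1a and Btg1 stay above control to 7 days after freezing apart from sample 436, and Ccng1 is lowest on freeze 3-day samples 450 and 468.

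Btg2 (probe set 101583_at), an antiproliferative BTG/TOB gene that is also an immediate early gene, was high at 6 h after either injury. Its signal was 372, 272 and 251 in the controls, a mean of 299 ± 64.8 (SD, n = 3). At 6 h it was 3029, 2291.5 and 2533 after contraction (2618 ± 376, n = 3) and 3132, 3031 and 3561 after freezing (3241 ± 281, n = 3). All 6 arrays stood several-fold above the highest control. The log2 change was 3.09 (SE 0.22, 8.5-fold, adjusted p = 3.56e-09) after contraction and 3.40 (SE 0.22, 10.6-fold, adjusted p = 1.58e-09) after freezing, and both were called under all 36 alternative settings, which are other ways of scaling, filtering and fitting and the removal of each array in turn.

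At 1 day Btg2 was 1343 and 1113 after contraction, still above every control (log2 change 2.01, SE 0.25, adjusted p = 2.23e-05). After freezing it was 595, 371 and 498, and the lowest of these lay just under the highest control. That smaller rise, 0.68 (SE 0.22, adjusted p = 0.0445), was lost in 19 of the 36 alternatives. They include leaving out any of 15 arrays: controls 2 and 3, contraction samples 421, 463, 445, 425, 439 and 453, and freeze samples 418, 432, 446, 422, 464, 440 and 454 (adjusted p 0.0506 to 0.163). At 3 days after contraction Btg2 was 435, 394 and 663.5, above all controls, with a log2 change of 0.70 that was called without sample 436 (adjusted p = 0.0141) and not with all arrays (adjusted p = 0.0548). By 7 days it overlapped the controls after either injury, with changes of 0.05 after contraction and 0.35 after freezing.

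Gadd45g (101979_at), a stress-induced member of the GADD45 family, had the largest rise of the 9 genes after contraction. The controls were at 200, 140.3 and 209, a mean of 183 ± 37.4 (n = 3). At 6 h after contraction the signal was 2962, 2077 and 2217 (2419 ± 476, n = 3), and at 6 h after freezing 866, 1976 and 1231 (1358 ± 566, n = 3). Every injured array at 6 h was above every control, and every contraction array was above every freeze array. The log2 change was 3.63 (SE 0.30, 12.4-fold, adjusted p = 2.27e-08) and 2.74 (SE 0.30, 6.69-fold, adjusted p = 1.88e-06). At 1 day the injuries parted: the signal was 1384 and 1875 after contraction (log2 change 3.07, SE 0.33, adjusted p = 3.09e-06), and 186, 264.5 and 350.1 after freezing, which overlapped the controls (0.49, adjusted p = 0.273). These 3 calls of a rise held in all 36 alternatives. At 3 days it was 160.3, 213 and 309 after contraction, and 306 and 366 on freeze samples 450 and 468 with 203 on sample 436. The freeze 3-day change was 0.62 with all arrays (adjusted p = 0.142) and 0.84 without sample 436 (adjusted p = 0.0271). By 7 days all 5 injured arrays lay between 121 and 172.

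Gadd45b (161666_f_at), the family member known best as a response gene of NF-kB and TGF-beta signalling, rose early and then fell below control. The suffix of this probe set marks probes that can match members of a sequence family, so a part of its signal may come from related transcripts. Control signals spread from 153 to 344 (309, 344 and 153), a mean of 269 ± 102 (n = 3). The 6-h signals were 815, 616 and 711 after contraction and 454.5, 692 and 588 after freezing, all above the controls. The log2 change was 1.43 (SE 0.28, 2.7-fold, adjusted p = 0.0037) and 1.12 (SE 0.28, 2.18-fold, adjusted p = 0.0162), the latter lost without control 3 or freeze sample 432 or 446 (adjusted p up to 0.133). At 1 day the signal was 516 and 526 after contraction, above every control but not called (1.00, adjusted p = 0.139), and 161, 171 and 204 after freezing, within the range of the controls.

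At 3 days after contraction Gadd45b was 102, 113 and 135, under all controls, and had fallen by 1.05 on the log2 scale (SE 0.28, adjusted p = 0.0244). At 7 days after freezing it was 95.4 and 91.7, again under all controls, and had fallen by 1.33 (SE 0.31, adjusted p = 0.0173). Both falls were lost without control 1 or control 2, which carry the higher control signals. The first was also lost without contraction sample 435 or 449 (adjusted p 0.0513 to 0.108 over these 4 removals), and the second without freeze sample 440 or 454 (0.0565 to 0.158). The other Gadd45b probe set, 102779_at, followed the first over the 25 arrays (r = 0.951). On it the changes were smaller, 0.84 and 0.85 at 6 h (adjusted p = 0.112 and 0.0567), with declines of 0.62 at 3 days after contraction and 0.65 at 7 days after freezing that were not called (adjusted p = 0.117 and 0.17).

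Sesn1 (95731_at) codes for sestrin 1, a stress protein that restrains mTORC1, and rose at 6 h after contraction. The controls were at 279.7, 248 and 177, a mean of 235 ± 52.8 (n = 3). At 6 h after contraction the signal was 896, 853 and 585 (778 ± 168, n = 3), far above every control, and at 6 h after freezing 246, 402 and 224, which overlapped them. The log2 change was 1.67 (SE 0.25, 3.19-fold, adjusted p = 0.00015) after contraction and 0.27 (SE 0.25, adjusted p = 0.639) after freezing. At 1 day it was 451 and 413.5 after contraction, above every control, with a change of 0.87 called without sample 436 (adjusted p = 0.0394) and not with all arrays (adjusted p = 0.152). At 1 day after freezing it was 146, 229 and 179. At 3 days freeze samples 450 and 468 stood at 476 and 430.0, above all controls, and sample 436 at 268, among them. The freeze 3-day change was 0.69 with all arrays (adjusted p = 0.0542) and 0.93 without sample 436 (adjusted p = 0.00301), and no freeze array at 6 h or 1 day reached the 2 arrays of 3 days other than sample 436.

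**Figure D2:**
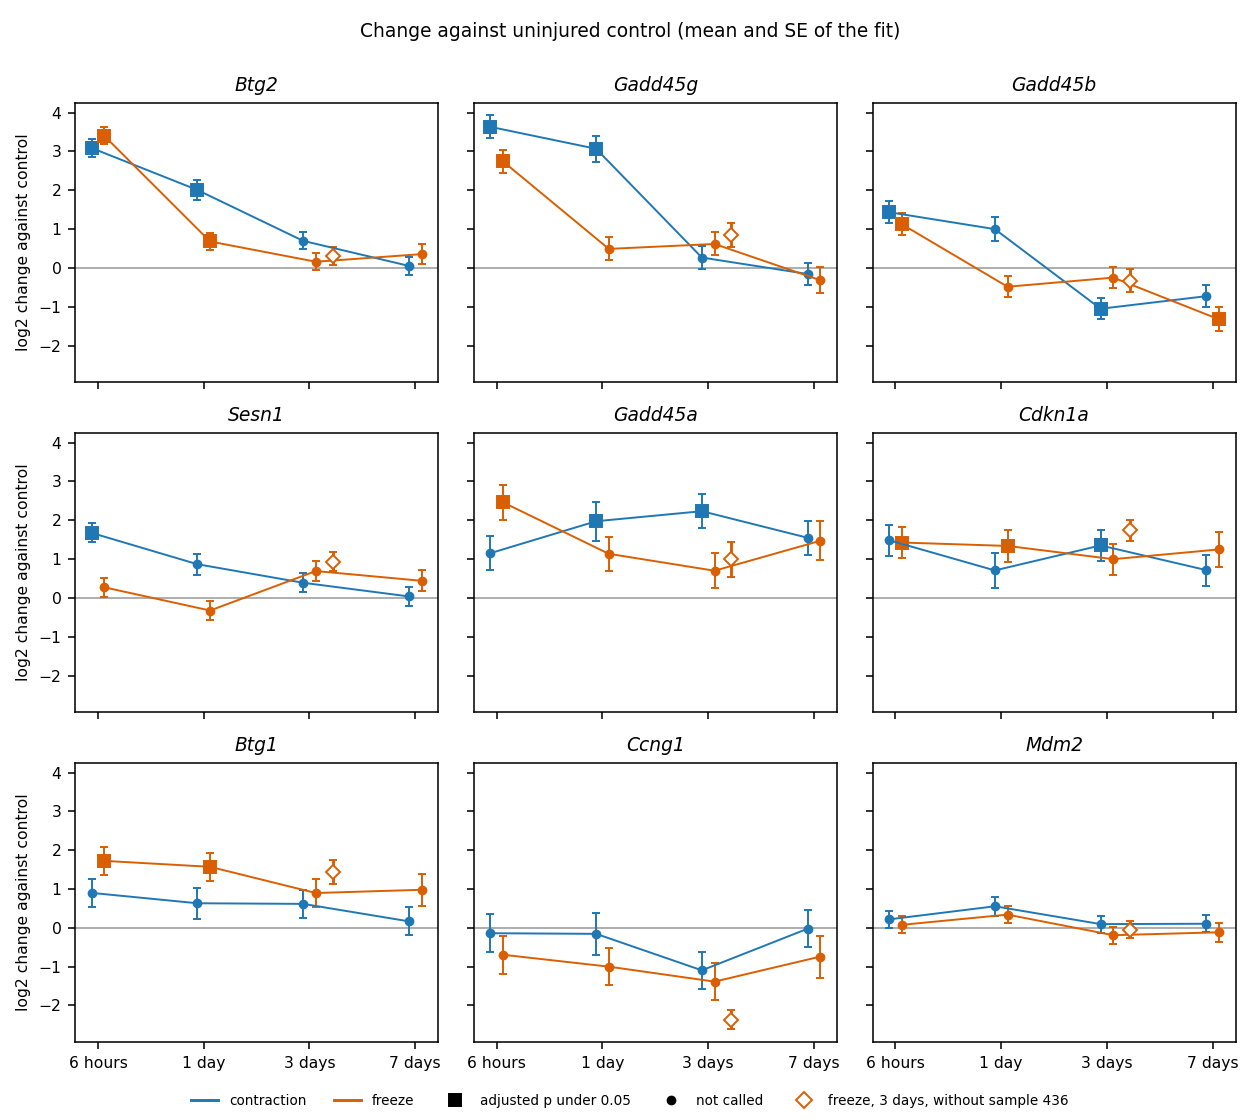
Log2 change of each gene against the 3 control samples over time (y axis: log2 of signal + 13; x axis: time after injury), contraction in blue and freeze in orange, with bars of 1 SE. Squares are called at an adjusted p under 0.05 with all arrays, and open diamonds are freeze at 3 days without sample 436. Gadd45g holds near 3 at 1 day after contraction and near 0.5 after freezing, and Sesn1 is at 1.67 and 0.27 at 6 h.

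Gadd45a (102292_at), the family member induced by DNA damage and by denervation of muscle, was high for longer than its relatives and varied widely between samples. The controls were close together at 278, 251 and 213, a mean of 247 ± 33.0 (n = 3). After contraction the signal was 609.6, 759 and 383 at 6 h, 691 and 1458 at 1 day, 1273, 626 and 2182 at 3 days and 418.5, 1153 and 850.2 at 7 days. All 11 contraction arrays were above the highest control, yet within a group the highest was up to several times the lowest. The log2 change was 1.15 (SE 0.44, adjusted p = 0.305) at 6 h, 1.97 (SE 0.50, adjusted p = 0.0412) at 1 day, 2.23 (SE 0.44, 4.7-fold, adjusted p = 0.00561) at 3 days and 1.55 (SE 0.44, adjusted p = 0.151) at 7 days. The call at 3 days held in all 36 alternatives. The call at 1 day was lost in 12 of the 36, including the removal of any of 11 arrays: the 3 controls, contraction samples 417, 421, 463, 435 and 453 and freeze samples 446, 460 and 464 (adjusted p 0.0512 to 0.623). The change at 7 days was called without sample 436 (adjusted p = 0.0415).

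After freezing, Gadd45a was highest first. At 6 h it was 2256, 814 and 1533, all far above the controls (log2 change 2.46, SE 0.44, 5.51-fold, adjusted p = 0.00124), a call that held in all 36 alternatives. It was 419, 587 and 698 at 1 day, 457 and 550.0 on samples 450 and 468 at 3 days with 268 on sample 436, and 888.5 and 558.5 at 7 days. Every freeze array other than sample 436 was thus above every control. Changes at 1 day (1.13) and 7 days (1.47) were called without sample 436 (adjusted p = 0.0457 and 0.0287) and not with all arrays (0.0903 and 0.0828).

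Cdkn1a (98067_at), the gene of the cell cycle inhibitor p21, was above control in most injured groups. The controls were at 334, 215 and 217, a mean of 255 ± 68.0 (n = 3). After contraction the signal was 831, 812 and 559.9 at 6 h, 372 and 466 at 1 day, 706, 493 and 817 at 3 days and 310.2, 568 and 416 at 7 days. After freezing it was 763, 612 and 714.5 at 6 h, 622, 526 and 845 at 1 day, 771 and 965.5 on samples 450 and 468 at 3 days with 176 on sample 436, and 584 and 641 at 7 days. All injured arrays but contraction sample 425 at 7 days (310.2) and sample 436 were above the highest control. The change was called with all arrays at 3 days after contraction (1.35, SE 0.40, adjusted p = 0.0419), 6 h after freezing (1.43, SE 0.40, adjusted p = 0.0411) and 1 day after freezing (1.34, SE 0.40, adjusted p = 0.0303). At 6 h after contraction it was 1.49 (SE 0.40, adjusted p = 0.0629).

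These Cdkn1a calls sat near the threshold with all arrays and far from it without sample 436, with which the SE of the change at 6 h was 0.40 and without which it was 0.23. Without it, the changes were called at 6 h and 3 days after contraction (adjusted p = 0.000222 and 0.000187) and at 6 h, 1 day, 3 days and 7 days after freezing (0.00019, 0.00016, 1.07e-05 and 0.00159), the 3-day change being 1.74. With sample 436 kept, the call at 3 days after contraction was lost on removal of any of 15 arrays (controls 1, 2 and 3, contraction samples 417, 431, 421, 463, 435, 467 and 453, freeze samples 418, 446, 422, 440 and 454), with adjusted p up to 0.138. The call at 6 h after freezing was lost without any of 13 (controls 2 and 3, contraction samples 417, 421, 463, 435 and 453, freeze samples 418, 432, 446, 422, 440 and 454), up to 0.142, and that at 1 day after freezing without control 2 or 3 or freeze sample 422 or 464, up to 0.122. The other Cdkn1a probe set, 94881_at, moved with the first over the 25 arrays (r = 0.942) and by more. Its controls were 109, 64.7 and 35.9, and its changes were 2.46 at 6 h after contraction (adjusted p = 0.0117), 3.06 at 6 h after freezing (adjusted p = 0.000783) and 2.81 at 7 days after freezing (adjusted p = 0.0102), all called. With all arrays it was also called at 3 days after freezing (1.94, adjusted p = 0.0207), and not at 1 or 7 days after contraction (adjusted p = 0.173 and 0.189).

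Btg1 (93104_at), the relative of Btg2, rose after freezing and stayed up. The controls lay within 70.2 to 77.6 (77.6, 76.2 and 70.2), a mean of 74.7 ± 3.93 (n = 3). After freezing it was 261, 187.5 and 431 at 6 h, 185, 274.5 and 298 at 1 day, 237 and 214 on samples 450 and 468 at 3 days with 63.6 on sample 436, and 159.5 and 160.3 at 7 days. All freeze arrays other than sample 436 were above every control. The log2 change was 1.73 at 6 h (SE 0.36, 3.31-fold, adjusted p = 0.00494) and 1.57 at 1 day (SE 0.36, 2.97-fold, adjusted p = 0.00684), and the former was lost without freeze sample 446 (adjusted p = 0.0519). Without sample 436 the changes at 3 days (1.44, adjusted p = 0.000449) and 7 days (0.98, adjusted p = 0.0248) were called too. After contraction the arrays at 6 h, 1 day and 3 days lay between 108 and 241, also above all controls, with changes of 0.90, 0.63 and 0.62 that were not called (adjusted p 0.283 to 0.668). At 7 days after contraction they were 74.5, 115 and 72.2, so 2 of the 3 arrays lay within the range of the controls and 1 above it.

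Ccng1 (160127_at) codes for a cyclin that recruits phosphatase PP2A and is a well-known p53 target. The controls were at 844, 942 and 1494, a mean of 1093 ± 350.3 (n = 3). After freezing the signal was 682, 627 and 643 at 6 h, 491, 631.5 and 462 at 1 day, 171 and 221 on samples 450 and 468 at 3 days with 1589 on sample 436, and 629 on each array at 7 days. All freeze arrays but sample 436 were below every control. After contraction it was 359, 644 and 506 at 3 days, below every control, and overlapped the controls at 6 h, 1 day and 7 days. With all arrays none of the 8 changes was called by limma (2 had an unadjusted p under 0.05), and at 3 days they were -1.09 after contraction (adjusted p = 0.152) and -1.38 after freezing (adjusted p = 0.0503). Without sample 436, Ccng1 had fallen by 2.37 at 3 days after freezing (SE 0.25, 5.16-fold, adjusted p = 5.83e-08), by 1.09 at 3 days after contraction (adjusted p = 0.000736), and by 0.69, 1.00 and 0.74 at 6 h, 1 day and 7 days after freezing (adjusted p = 0.0416, 0.00143 and 0.0366).

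The summed signal of the 12 muscle fibre markers was below every control (111050 to 187870) in most groups where Ccng1 was. It was 68234 to 92014 at 3 days after contraction and 66659 to 107190 at 1 day after freezing. It was 30331 and 40934 on freeze samples 450 and 468, and 88102 and 93250 at 7 days after freezing. At 6 h after freezing, where Ccng1 was below every control, the sum was 109190 to 124150 and overlapped them. Where Ccng1 overlapped the controls, the sum was 111090 to 167850 at 6 h, 100540 and 119350 at 1 day and 99911 to 138240 at 7 days after contraction. In whole muscle, fewer cells of a type and less RNA per cell cannot be told apart, and the part of fibre content in the Ccng1 change was not tested.

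Mdm2 (98110_at), the ubiquitin ligase that degrades p53 and is itself a p53 target, showed no called change. The controls were at 174, 250.5 and 289, and the injured arrays ran from 163 (sample 436) to 361. The group furthest from control was 1 day after contraction, at 336.5 and 361, both above every control (log2 change 0.56, SE 0.24, 95% interval 0.05 to 1.06, adjusted p = 0.41). The F test over the 8 injured groups gave an adjusted p of 0.248, and 0.267 without sample 436. At 6 h the intervals ran from -0.23 to 0.67 after contraction and from -0.37 to 0.53 after freezing, so a rise of the size seen for Cdkn1a lay outside them.

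The injuries were compared with each other at each time, since the series sets contraction against freezing. At 6 h 1 of the 9 genes differed, against 0.305% of probe sets (2.36% without sample 436, with the same gene called): Sesn1 was 2.64-fold lower after freezing (log2 difference -1.40, SE 0.25, adjusted p = 0.0206). That call was lost without contraction sample 417 or freeze sample 418 or 446 (adjusted p 0.0917 to 0.203). Btg2 differed by 0.31 (95% interval -0.15 to 0.78) and Cdkn1a by -0.06 (-0.89 to 0.78), neither called. Gadd45g was lower by 0.89 and Gadd45a higher by 1.31 after freezing, with adjusted p of 0.297 and 0.318.

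At 1 day 4 of the 9 genes were lower after freezing, against 1.45% of probe sets. Gadd45g was 5.98-fold lower (-2.58, SE 0.33, adjusted p = 9.43e-05), Gadd45b 2.8-fold (-1.48, SE 0.31, adjusted p = 0.0141), Btg2 2.51-fold (-1.33, SE 0.25, adjusted p = 0.00573) and Sesn1 2.29-fold (-1.19, SE 0.27, adjusted p = 0.0297). In each of these genes the 2 contraction arrays lay above all 3 freeze arrays. Only the Gadd45g call held in all alternatives. The other 3 were lost without contraction sample 421 or 463, which leaves a lone contraction array, and Gadd45b also without freeze sample 422 or 460 and Sesn1 without 422 or 464 (adjusted p 0.0509 to 0.236 over these removals). Without sample 436, Btg1 was also called higher (0.94, adjusted p = 0.0495) and Ccng1 lower (-0.84, adjusted p = 0.0287) after freezing, 6 of 9 against 10.1%.

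At 3 days limma called none of the 9 (0.389% of probe sets), with 3 at an unadjusted p under 0.05. Without sample 436 Ccng1 was called, 2.42-fold lower after freezing (-1.27, adjusted p = 0.000841), 1 of 9 against 16.9%. At 7 days none was called, with all arrays (0.368%; none at an unadjusted p under 0.05) or without sample 436 (7.27%; 2 at an unadjusted p under 0.05). Over the mean of the 4 times, Gadd45g (-0.82, adjusted p = 0.00392) and Sesn1 (-0.47, adjusted p = 0.0365) were lower and Btg1 (0.71, adjusted p = 0.0329) higher after freezing, 3 of 9 against 6.11% of probe sets. Gadd45g held in all alternatives, whereas Btg1 was lost on removal of any of 15 arrays (contraction samples 417, 445, 421, 463, 467, 425 and 453, freeze samples 418, 446, 460, 464, 450, 468, 440 and 454, adjusted p up to 0.0777). Sesn1 was lost on removal of any of 14 (contraction samples 417, 431, 421, 463, 449, 467, 425 and 453, freeze samples 418, 446, 422, 464, 440 and 454, up to 0.0871), and with adjacent sample numbers as a random block (0.0536). Without sample 436, Cdkn1a was also called higher (0.37) and Gadd45b (-0.42) and Ccng1 (-0.85) lower after freezing, 6 of 9 against 30.9%. On the other Gadd45b probe set this difference was -0.14 and not called (adjusted p = 0.466).

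The test of whether the difference between the injuries changed with time called Gadd45g (adjusted p = 0.00767), Sesn1 (0.0114), Btg2 (0.0351) and Gadd45b (0.0351), 4 of 9 genes against 0.589% of probe sets. Without sample 436 Gadd45a joined them (adjusted p = 0.0484), 5 of 9 against 4.45%. The count was 2 without any of contraction samples 445, 421, 435 and 425 or freeze samples 446, 460, 464, 440 and 454, and 1 without contraction sample 463. Cdkn1a (adjusted p = 0.859), Btg1 (0.935), Ccng1 (0.983) and Mdm2 (0.997) were not called. Read from its other probe set, Gadd45b was not called with all arrays (adjusted p = 0.117).

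**Figure D3:**
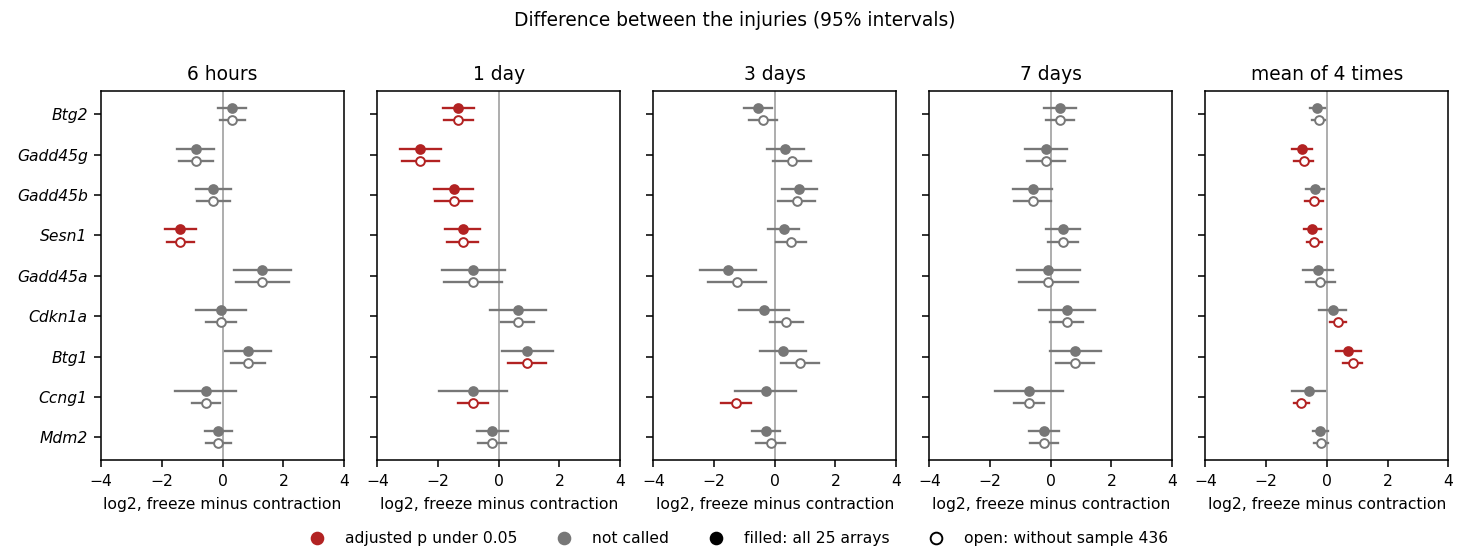
Difference between freeze and contraction injury for each gene at each time and over the mean of the times (x axis: log2 difference, freeze minus contraction, with 95% intervals; y axis: genes). Filled points use all 25 arrays, open points leave out sample 436 and red marks an adjusted p under 0.05. At 1 day Gadd45g, Gadd45b, Btg2 and Sesn1 lie left of 0, from -2.58 to -1.19.

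Steps between consecutive times do not use the control means, though the controls enter the spread that the fit pools over all 9 groups. From 6 h to 1 day after freezing Btg2 fell by 2.72 (6.59-fold, adjusted p = 3.62e-07), Gadd45g fell by 2.25 (4.77-fold, adjusted p = 0.000135) and Gadd45b fell by 1.61 (3.05-fold, adjusted p = 0.00215), 3 of 9 genes against 3.57% of probe sets. Without sample 436 Gadd45a had fallen too, by 1.33 (adjusted p = 0.0341), 4 of 9 against 14.7%. Over the same step after contraction none of the 9 was called by limma (0.0421% of probe sets), with 2 at an unadjusted p under 0.05, and Btg2 was called without sample 436, having fallen by 1.08 (adjusted p = 0.024), 1 of 9 against 0.526%.

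After contraction Gadd45g, Gadd45b and Btg2 fell over the next step. From 1 to 3 days Gadd45g fell by 2.80 (6.98-fold, adjusted p = 5.35e-05), Gadd45b fell by 2.05 (4.15-fold, adjusted p = 0.000746) and Btg2 fell by 1.31 (2.48-fold, adjusted p = 0.00797), 3 of 9 against 1.16% of probe sets. The Btg2 step was lost without contraction sample 421, 463 or 435 (adjusted p 0.0548 to 0.138). Without sample 436 Ccng1 had fallen as well, by 0.94 (adjusted p = 0.0157), 4 of 9 against 9.72%. From 3 to 7 days after contraction none was called by limma (0.842%), with 2 at an unadjusted p under 0.05. Without sample 436 Ccng1 rose by 1.07 (adjusted p = 0.00179) and Btg2 fell by 0.64 (adjusted p = 0.0341), 2 of 9 against 13.1%.

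From 1 to 3 days after freezing Sesn1 rose, by 1.02 (SE 0.25, adjusted p = 0.0279), 1 of 9 against 2.1%, a call lost without freeze sample 422, 464, 450 or 468 (adjusted p 0.102 to 0.161). Without sample 436 that rise was 1.26 (adjusted p = 0.000555) and Ccng1 fell by 1.37 (adjusted p = 0.000295), 2 of 9 against 18.1%. From 3 to 7 days after freezing limma called none (0.81%), with 2 at an unadjusted p under 0.05. Without sample 436, Ccng1 rose by 1.63 (adjusted p = 0.000163), Gadd45g fell by 1.16 (adjusted p = 0.0162) and Gadd45b fell by 1.00 (adjusted p = 0.0369), 3 of 9 against 17.1%.

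Across the 9 group means, Gadd45g and Gadd45b had nearly the same profile (r = 0.935) and Btg2 resembled Gadd45g (r = 0.927). With sample 436 left out, Cdkn1a was most like Btg1 among the members (r = 0.804) and ran against Ccng1 (r = -0.70). These values describe 9 points that share the same arrays. Among the 1966 genes called in the F test, the genes most like Gadd45g were Nfil3 (r = 0.987), Cited2 (0.975) and Arntl (0.967), and those most like Btg2 were Cebpd (0.985), Egr1 (0.983) and Gabarapl1 (0.957). Gadd45b was most like Lor (0.952), Susd6 (0.949) and Tm9sf3 (0.939), Btg1 like Ccn2 (0.964), Angptl4 (0.962) and Ctla2b (0.953), and Sesn1 like Jun (0.915), Hspe1 (0.829) and Dnajb1 (0.821). The closest genes to Gadd45a were further off, Ptgfrn (0.857), Clic4 (0.844) and Slc20a1 (0.794). Without sample 436, where 3696 genes were compared, Ccng1 ran with Myom1 (0.994), Rab10 (0.990) and Ppp3cc (0.989), and Cdkn1a with Il13ra1 (0.928), Ifi207 (0.908) and St3gal1 (0.889).

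Other genes of the pathway were counted from lists drawn up by function. Of 36 further p53 targets, 17 were tested. At 6 h 1 rose after contraction (1.87% of all probe sets were called there), and 1 rose and 1 fell after freezing (4.85%). The most called with all arrays was at 1 day after freezing, with 3 higher and 2 lower (14.2%). The F test called 7 of the 17 against 26.2% of probe sets, and 11 against 49.3% without sample 436. Without sample 436, 2 rose at 6 h after contraction (3.36%), and 2 rose and 4 fell at 6 h after freezing (11.4%). Their median log2 change was -0.19 at 6 h after either injury, beside 1.43 for the 9 genes. Members and lists were chosen with earlier results of these data known, so this contrast is a description and not a test. Those that moved most were Plk2, a polo-like kinase, 6.89-fold higher at 1 day after freezing (signal 199 ± 47.7 to 1436 ± 244, n = 3 each, adjusted p = 0.000122), and Ddit4, an mTORC1 inhibitor, 3.2-fold higher at 1 day after contraction (adjusted p = 0.00653). Plk3 fell by 1.07 at 3 days after contraction (adjusted p = 0.0172), and the repair nuclease gene Ercc5 by 1.04 at 1 day after freezing (adjusted p = 0.00655). Without sample 436, at 3 days after freezing 6 of the 17 were higher and 4 lower (42.4%), among them the tetraspanin gene Cd82 (1.76, adjusted p = 8.65e-06) and Phlda3 (-1.62, adjusted p = 1.98e-06), a repressor of Akt.

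Of 33 regulators of p53 and DNA damage signalling, 22 were tested, and none was called by limma at 6 h or 1 day after contraction, with all arrays (2 and 3 at an unadjusted p under 0.05) or without sample 436 (3 and 4). After freezing 2 of the 22 were lower at 6 h, where 4.85% of all probe sets were called. The coactivator gene Crebbp fell by 1.96 (adjusted p = 0.00108) and the p53 kinase gene Hipk2 fell by 1.53 (adjusted p = 0.0148). Without sample 436, 1 rose and 3 fell at that time (11.4%). At 1 day after freezing 3 of the 22 rose, where 14.2% of all probe sets were called. The largest rise was that of the nucleolin gene Ncl (1.56, 2.94-fold, adjusted p = 0.00305). Without sample 436, 3 rose and 1 fell at 1 day (26.8%). Npm1, the gene of nucleophosmin, rose 2.84-fold at 3 days after freezing (adjusted p = 0.00984) with sample 436 included. At that time 2 of the 22 rose with all arrays (17.9% of probe sets were called) and 5 without sample 436 (42.4%).

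Of 30 other growth arrest and antiproliferative genes, 24 were tested. With all arrays 4 rose at 6 h after contraction (1.87% of all probe sets were called) and 5 at 6 h after freezing (4.85%), and none was called lower. Without sample 436, 5 rose at 6 h after contraction (3.36%), and 6 rose and 2 fell at 6 h after freezing (11.4%). Their median changes at 6 h were -0.19 and -0.18, beside -0.08 and -0.04 for all probe sets. Klf6, a zinc finger factor, rose 5.58-fold at 6 h after freezing (signal 136.5 ± 23.1 to 835 ± 218, n = 3 each, adjusted p = 7.89e-06). Cdkn1c, the gene of p57 and a relative of Cdkn1a, rose late, 11.4-fold at 7 days after freezing (126 ± 25, n = 3, to 1549 ± 143, n = 2, adjusted p = 0.000116). Tob1, of the family of Btg1 and Btg2, moved against them and fell by 1.96 at 1 day after freezing (adjusted p = 0.0067), and Cdkn2c, of the INK4 inhibitors, fell by 1.03 (adjusted p = 0.000814).

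Of 36 proliferation genes, 29 were tested. With all arrays limma called none at 6 h after either injury or at 1 day after contraction. At an unadjusted p under 0.05 there was 1, at 6 h after freezing. Without sample 436, 1 was called at 6 h after freezing, higher (11.4% of all probe sets were called), and none at 6 h or 1 day after contraction. At an unadjusted p under 0.05 there were then 3 at 6 h after freezing, and 1 and 6 at 6 h and 1 day after contraction. At 3 days after contraction 10 rose against 8.25% of all probe sets called (20 against 22.8% without sample 436). After freezing 8 rose at 1 day against 14.2% (13 against 26.8%) and 17 at 3 days against 17.9% (28 against 42.4%). At 7 days after freezing limma called none with all arrays (10 at an unadjusted p under 0.05), and 14 were called higher without sample 436, against 19.5%. None was called lower in these groups. Stmn1 was 9.27-fold higher at 3 days after contraction (adjusted p = 0.0155) and Cks1b 7.24-fold higher at 1 day after freezing (adjusted p = 0.0081).

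Of 11 kinases downstream of GADD45, 8 were tested and none rose with all arrays. At 3 days after contraction 1 fell (8.25% of all probe sets were called). After freezing 1, 1 and 2 fell at 6 h, 1 day and 3 days (4.85%, 14.2% and 17.9%). Among these, Mapk12 fell by 1.31 at 3 days after freezing (adjusted p = 0.0149) and Mapk14 by 0.87 at 3 days after contraction (adjusted p = 0.0084), both p38 kinases. Without sample 436, 2 fell at 3 days after contraction (22.8%). After freezing 1, 3, 5 and 3 then fell at 6 h, 1 day, 3 days and 7 days (11.4%, 26.8%, 42.4% and 19.5%). In that setting 1 rose at 6 h and 1 at 1 day after freezing, with Map2k3 at 0.71 at 6 h (adjusted p = 0.00759). Of 15 genes of the ATF4 pathway and of muscle atrophy, 9 were tested and with all arrays up to 5 rose in a group, at 3 days after contraction (8.25% of probe sets were called), with none lower. Without sample 436 the highest count was at 3 days after freezing, where 6 rose and Atf4 fell by 0.65 (adjusted p = 0.00994; 42.4% of probe sets were called), and Ddit3 fell by 1.24 at 7 days after contraction (adjusted p = 0.0247). They include Myog, 7.38-fold at 3 days after contraction (adjusted p = 0.00561), and Chrna1, an acetylcholine receptor subunit, 15.6-fold at 7 days after freezing (adjusted p = 0.00679). Of 21 early stress transcription factors, 20 were tested. With all arrays 13 rose at 6 h after contraction (1.87% of all probe sets were called) and 16 at 6 h after freezing (4.85%), with none lower. At 1 day 10 and 13 were higher (1.79% and 14.2%). The largest rises were Fos, at 6.75 on the log2 scale (108-fold, adjusted p = 1.07e-09), and Atf3, at 6.35 (81.4-fold, adjusted p = 2.01e-10), at 6 h after contraction.

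**Figure D4:**
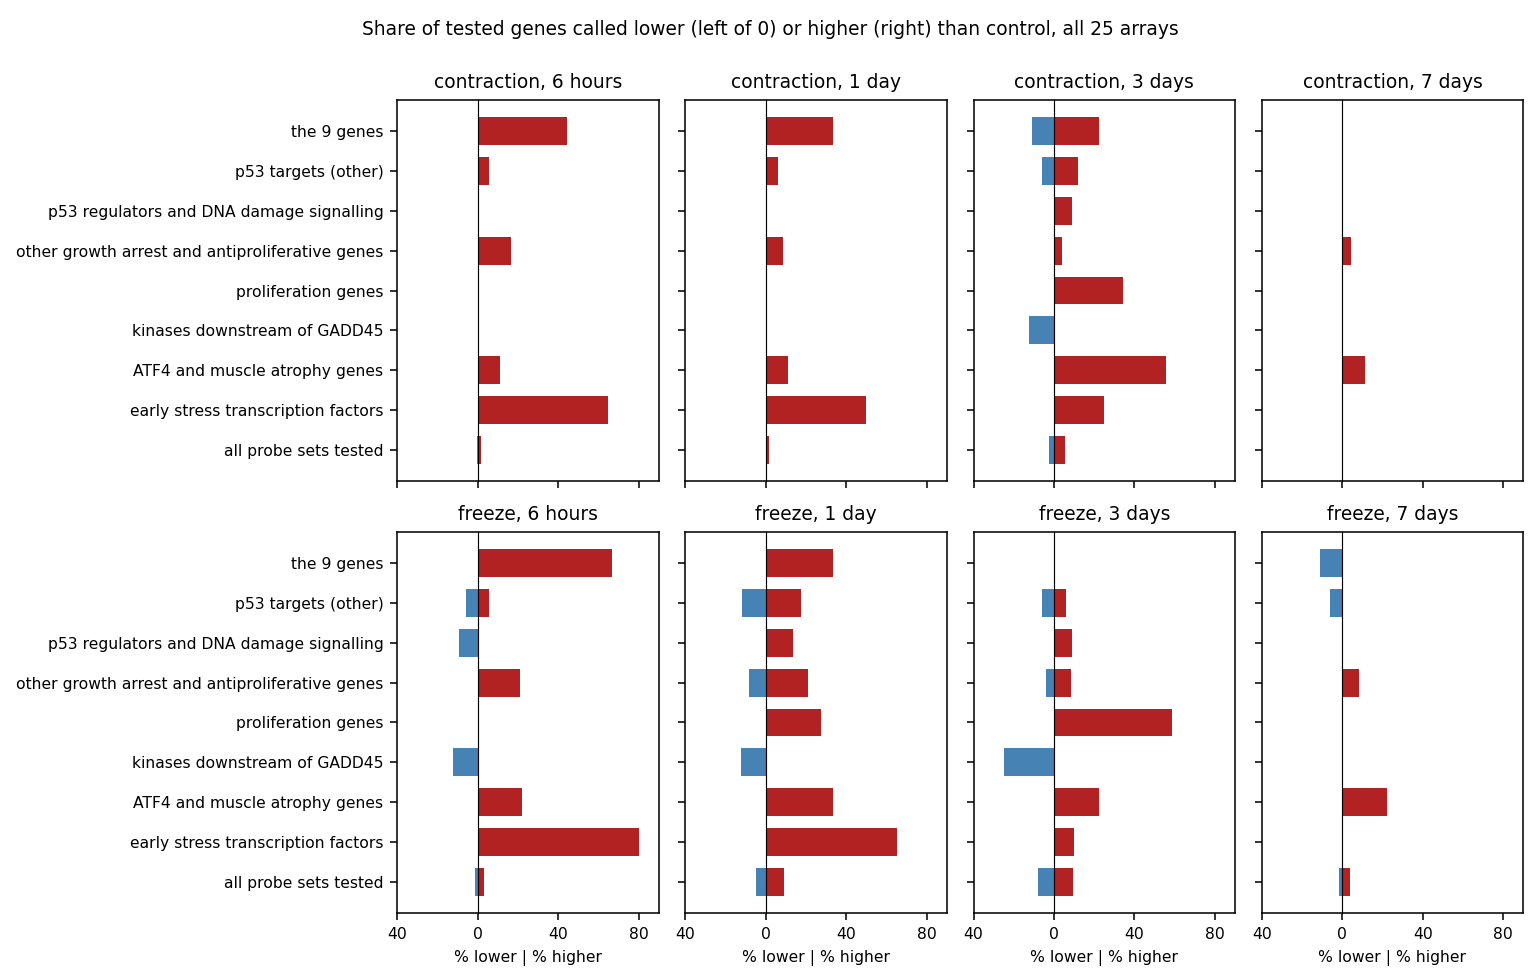
Share of the tested genes of each list called lower (blue, left of 0) or higher (red, right of 0) than control at an adjusted p under 0.05, all 25 arrays (x axis: percent of tested genes; 1 panel per injury and time). The 9 measured genes and the early stress transcription factors have their longest bars at 6 h, and the proliferation genes at 3 days, where 10 and 17 of 29 were higher.

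Markers of cells other than fibres differed between the groups too. The summed signal of the 12 macrophage markers was 630 to 1542 at 6 h after contraction, 2482 to 4721 at 6 h after freezing, 6136 to 8623 at 1 day after freezing and 8179 to 11852 at 3 days after contraction, with 464 to 681 in the controls. Of the 12, none was called by limma with all arrays at 6 h or 1 day after contraction (none and 2 at an unadjusted p under 0.05). After freezing 3 were called at 6 h (4.85% of all probe sets were called) and 10 at 1 day (14.2%), all higher. At 3 days after contraction 9 were called, all higher (8.25%). Without sample 436 the calls after contraction were 1 at 6 h (3.36% of all probe sets) and 5 at 1 day (4.33%), all higher. At an unadjusted p under 0.05 there were 5 and 7. After freezing the calls were then 8 at 6 h (11.4%) and 11 at 1 day (26.8%), all higher. Control signals of the 12 ran from very low, as for Cd53 (1.9 to 3.2), up to those of Cd14 (164.8 to 216.2). Whether the lowest signals stand for expression was not tested. The summed signal of 10 neutrophil markers was 2877 to 4536 at 6 h and 2044 to 3672 at 1 day after freezing, 522 to 1963 at 6 h after contraction and 481 to 871 in the controls. Of the 7 neutrophil markers tested, limma called 4 higher at 6 h after freezing and none at 6 h after contraction (2 at an unadjusted p under 0.05), with or without sample 436. Of all probe sets, 4.85% and 1.87% were called there with all arrays, and 11.4% and 3.36% without sample 436. Summed satellite cell and myoblast markers were 2915 to 3620 at 6 h after contraction and 3501 to 4048 at 6 h after freezing, above 1350 to 1504 in the controls. Of the 9 markers in that sum 1 was called in each of these groups with all arrays, higher (1.87% and 4.85% of all probe sets). Their median log2 change was 0.40 and 0.04. The part of these cells in the changes of the 9 genes was not tested.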

How the data were processed

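Each deposited value is a signal intensity of a probe set on a linear scale, made by the authors with the MAS5 algorithm, as the submitters' processing notes record. The sources used here do not give its version. RNA was extracted with TRIzol and RNeasy, per the labels' protocols.

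Signals were analysed as log2(signal + 13) with limma 3.58.1 in R 4.3.3. Control probe sets were left out, as were those that exceeded the 40th percentile of the signals of an array on fewer than 2 arrays, and 9506 (6919 genes) were tested. A model of 9 group means over all 25 arrays was fitted with lmFit and eBayes (trend), 2-sided, with Benjamini-Hochberg adjustment within each comparison. Without the filter 12422 probe sets were tested. The number of arrays limits the precision.

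The platform annotation named 1 gene for 10833 of 12488 probe sets, several for 396 and none for 1193, and 66 were control probe sets. Names were updated through RefSeq, and 16 probe sets kept an old symbol. The named genes are all the members and, of each list, up to 2 of the largest rises and 2 of the largest falls among the calls. The likeness rule took the 3 genes with the highest Pearson correlation over the group means. Members and lists were chosen with earlier results of these data known. Several list genes sit on more than 1 list (Klf4, Klf6, Ddit3, Foxo1 and Sesn2). Samples carry no numbers shared between groups. The fit was tested on simulated data. The alternatives were other pseudocounts (1 and 50), scalings, filters, fits, array weights, 1 probe set per gene and leaving out each array. Counts of lists and likeness without sample 436 were added after the data had been seen.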

Additional observations from a re-analysis of the deposited data

Results flagged for a closer look

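Freeze and contraction injury differed in some of the 9 genes by a direct test of the difference (limma, adjusted p under 0.05). At 6 h the difference, freeze minus contraction, was -1.40 on the log2 scale for Sesn1, with all 3 contraction arrays above all 3 freeze arrays. At 1 day it was -2.58 for Gadd45g, -1.48 for Gadd45b, -1.33 for Btg2 and -1.19 for Sesn1, with both contraction arrays above all 3 freeze arrays in each gene. Over the mean of the 4 times it was -0.82 for Gadd45g, 0.71 for Btg1 and -0.47 for Sesn1. The difference between the injuries also changed with time for Gadd45g (adjusted p = 0.00767), Sesn1 (0.0114), Gadd45b (0.0351) and Btg2 (0.0351). On the other Gadd45b probe set this change was not called (adjusted p = 0.117). The mean over the times includes sample 436, whose place among the controls is given above. Groups held 2 or 3 arrays, so single arrays were not tested for standing apart.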

How the results depend on the processing

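The calls that stood under all alternatives were those of Btg2 and Gadd45g at 6 h after either injury and at 1 day after contraction, Gadd45a at 3 days after contraction and 6 h after freezing, Sesn1 at 6 h after contraction, Btg1 at 1 day after freezing, the Gadd45g differences between the injuries at 1 day and over the mean, and the steps of Gadd45g and Gadd45b between 6 h and 1 day after freezing and between 1 and 3 days after contraction, with that of Btg2 after freezing. Counts of the 9 genes called moved by over 1.5 times as follows. With array weights (0.0768 for sample 436, 0.428 to 2.28 for the others) the counts were 5 at 3 days after contraction (3 with equal weights), 5 at 3 days and 4 at 7 days after freezing (0 and 1), 2, 5 and 3 between the injuries at 6 h, 3 days and 7 days (1, 0 and 0) and 7 over the mean (3). For the steps they were 1 from 6 h to 1 day and 3 from 3 to 7 days after contraction (0 and 0), and 2 from 1 to 3 days and 4 from 3 to 7 days after freezing (1 and 0). With only the arrays of the compared groups fitted, the count was 4 at 7 days after freezing, 0 and 1 between the injuries at 6 h and 7 days, 1 from 3 to 7 days after contraction and 0 from 1 to 3 days after freezing. At 3 days after freezing it was 1 with quantile normalization, median centring, the block of adjacent sample numbers or 1 probe set per gene, and 2 with the stricter filter. That block (10 pairs, correlation -0.0937) gave 2 calls of a change with time in the difference between the injuries. The labels give no replicate number that groups share and do not call adjacent numbers pairs, so this block, with a Sesn1 call lost over the mean (adjusted p = 0.0536), is the one blocked fit that was run.

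Leaving out each array in turn, the count ranged from 1 to 5 at 3 days and from 0 to 1 at 7 days after contraction, from 3 to 7 at 6 h, 1 to 5 at 1 day, 0 to 5 at 3 days and 0 to 5 at 7 days after freezing. Between the injuries it ranged from 0 to 1 at 6 h, 1 to 6 at 1 day, 0 to 1 at 3 days and 1 to 6 over the mean, and for the change with time from 1 to 5. For the steps it ranged from 0 to 1 from 6 h to 1 day and 0 to 2 from 3 to 7 days after contraction, 0 to 2 from 1 to 3 days and 0 to 3 from 3 to 7 days after freezing. Other than between the injuries at 6 h, the highest of these counts came without sample 436. The difference of Ccng1 between the injuries at 3 days turned from -0.29 to 0.29 without freeze sample 450 and 0.11 without 468, and its step from 1 to 3 days after freezing from -0.39 to 0.19 and 0.02, since sample 436 is then 1 of 2 arrays. Without sample 436 they were -1.27 and -1.37. Neither was called with all arrays. The cause of the other shifts was not tested. Groups of 2 or 3 arrays limit what could be called.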
